A study of Homo sapiens and Mus musculus and synthetic construct with 31 samples.

Results

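CpG-poor upstream tiles are the upstream sequences of this reporter library that hold 3 or fewer CpG dinucleotides. The library had 15156 designed sequences, among them human and mouse sequences around transcription start sites (TSSs). For each TSS it held a tile over the TSS and a tile farther upstream that shares 30 bases with it. Counting CG in the designed sequence put 1090 of 3473 human upstream tiles (31.4%) and 1196 of 3286 mouse upstream tiles (36.4%) in the CpG-poor set, 2286 in all. Of these, 1086 human and 1188 mouse tiles were measured, meaning that at least 50% of their barcodes had 10 or more reads in the plasmid DNA. The human tiles had 0 CpG in 254 cases, 1 in 342, 2 in 288 and 3 in 206, and the mouse tiles 0 in 247, 1 in 337, 2 in 327 and 3 in 285.

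In this massively parallel reporter assay (MPRA) each sequence was placed upstream of a GFP reporter that carried a barcode, and reads of each barcode were counted in RNA from transfected cells and in the plasmid DNA. hESCs were the human embryonic stem cell line HUES64, kept without feeders in mTeSR1 medium and transfected with Lipofectamine Stem. The mESCs were mouse embryonic stem cells derived from blastocysts, also kept without feeders, in 2i medium, and transfected with Lipofectamine 2000. There were 3 passages of each cell type, with 3 transfections of each hESC passage and 1 of each mESC passage, and 1 plasmid DNA library served all of them. Cell line, medium, reagent and plasmid amount per cell changed together with species, so they cannot be told apart. Nothing in the labels says that the passages were separate derivations, so p-values measure the spread between passages.

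CpG dinucleotides are scarce in mammalian genomes, since methylated cytosines in them tend to mutate to thymine, which leaves TpG and CpA behind. They are kept at CpG islands, where many broadly used promoters lie and where transcription factors such as SP1, NRF1 and ETS proteins find sites with a CpG inside. Promoters outside islands and most enhancers are CpG-poor, and they are better known for sites of factors that vary between cell types, such as AP-1, a dimer of FOS and JUN proteins, or the pluripotency factor OCT4, which reads the octamer.

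MPRA activity is the summed RNA count over the summed DNA count of a sequence's barcodes, divided by the same ratio of the median random sequence, so that 1 is the level of a random sequence. The sequences below carried the main results, and each is on the strand that was placed in the reporter, 5′ to 3′. Capitals mark exact matches, on either strand, to motifs from a list of 24. Human positions are on hg19 and mouse positions on mm9.

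The first set held the AP-1 motif (TGACTCA or its reverse complement) and is shown because these tiles were among the highest of the human set in hESCs or fell strongly in mESCs. h.3248 is at chr2:112252649-112252792 on the minus strand, in an exon of the long noncoding RNA MIR4435-2HG, and its first capitals are an ETS match overlapping a STAT match. h.2886 is at chr1:68152393-68152536 on the minus strand, antisense in an intron of GADD45A, a DNA damage response gene. h.1495 is at chr15:101253798-101253941 on the plus strand, between genes, and has a match to the ZEB and SNAI box near its 3′ end.
h.3248: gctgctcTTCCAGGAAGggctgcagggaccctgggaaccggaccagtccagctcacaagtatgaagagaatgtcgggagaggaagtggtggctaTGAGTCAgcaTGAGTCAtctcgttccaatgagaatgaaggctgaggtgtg
h.2886: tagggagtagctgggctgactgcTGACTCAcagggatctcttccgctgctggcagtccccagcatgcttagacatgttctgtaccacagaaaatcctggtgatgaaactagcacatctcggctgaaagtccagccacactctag
h.1495: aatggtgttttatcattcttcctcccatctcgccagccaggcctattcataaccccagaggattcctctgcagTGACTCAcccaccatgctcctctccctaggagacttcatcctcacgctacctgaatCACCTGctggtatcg

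The second set is the remaining human tiles that stood high. h.1335 at chr2:232551970-232552113, plus strand, lies between genes and h.3450 at chr5:140943837-140943980, minus strand, lies inside DIAPH1 opposite an exon of DIAPH1-AS1, and neither holds a listed motif. h.368 at chr9:136890343-136890486, plus strand, lies next to the start of BRD3OS and has a GC box, the SP1-type site GGGCGG.
h.1335: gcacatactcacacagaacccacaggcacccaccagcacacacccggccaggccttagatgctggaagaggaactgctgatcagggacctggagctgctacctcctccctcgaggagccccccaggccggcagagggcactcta
h.3450: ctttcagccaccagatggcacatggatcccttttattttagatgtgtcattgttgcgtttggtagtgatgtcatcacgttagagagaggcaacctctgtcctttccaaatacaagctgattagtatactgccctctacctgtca
h.368: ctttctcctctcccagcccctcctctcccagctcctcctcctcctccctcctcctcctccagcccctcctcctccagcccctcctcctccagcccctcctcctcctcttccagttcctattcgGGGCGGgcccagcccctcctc

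The third set rose from near the random level in hESCs to a clear activity in mESCs. h.1356 at chr2:64894181-64894324, plus strand, is antisense in an intron of SERTAD2 and has an A tract. h.3457 at chr10:114492096-114492239, minus strand, is antisense in an intron of VTI1A and holds the octamer. The mouse tile m.3197 at chr10:88147860-88148003, minus strand, lies upstream of a TSS 15 bases from the annotated start of Spic. It holds the octamer and an ESRRB site (AAGGTCA).
h.1356: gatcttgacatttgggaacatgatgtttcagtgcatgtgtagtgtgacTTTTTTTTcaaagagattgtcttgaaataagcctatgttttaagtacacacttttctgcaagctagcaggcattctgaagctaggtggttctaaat
h.3457: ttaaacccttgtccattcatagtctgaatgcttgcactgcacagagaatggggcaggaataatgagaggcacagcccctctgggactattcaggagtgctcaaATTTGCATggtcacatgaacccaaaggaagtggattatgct
m.3197: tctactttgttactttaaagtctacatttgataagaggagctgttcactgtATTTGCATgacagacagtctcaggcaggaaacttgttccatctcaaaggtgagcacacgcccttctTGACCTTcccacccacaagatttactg

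The last set is the other mouse tiles that led, with a human and a mouse tile that stayed at the random level beside a strong TSS-overlapping tile. m.3250 at chr16:13904187-13904330, minus strand, is antisense in an intron of Mpv17l, and its 24-base words occur a median of 350 times in the mouse genome. m.1054 at chr11:116188611-116188754, minus strand, and m.3268 at chr19:60788732-60788875, minus strand, lie between genes. So does m.1276 at chr2:26434063-26434206, plus strand, upstream of a TSS 1244 bases from the start of Egfl7. h.1267 at chr9:110512265-110512408, minus strand, lies between genes. m.808 at chr10:119663894-119664037, plus strand, lies upstream of a TSS 5 bases from the start of Llph. Capitals mark ETS, SOX and CA repeat matches in m.1276, a ZEB and SNAI box and a SOX match in m.1054, and a TCF and LEF match running into a TATA box in m.808.
m.3250: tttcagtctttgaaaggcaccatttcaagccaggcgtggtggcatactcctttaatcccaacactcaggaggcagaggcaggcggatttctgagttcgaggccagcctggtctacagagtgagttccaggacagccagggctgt
m.1054: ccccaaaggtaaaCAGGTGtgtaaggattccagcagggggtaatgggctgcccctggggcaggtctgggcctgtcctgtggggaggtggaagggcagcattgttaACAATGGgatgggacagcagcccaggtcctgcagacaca
m.3268: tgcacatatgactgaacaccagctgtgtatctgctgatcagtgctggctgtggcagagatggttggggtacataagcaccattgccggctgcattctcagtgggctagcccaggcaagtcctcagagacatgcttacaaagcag
m.1276: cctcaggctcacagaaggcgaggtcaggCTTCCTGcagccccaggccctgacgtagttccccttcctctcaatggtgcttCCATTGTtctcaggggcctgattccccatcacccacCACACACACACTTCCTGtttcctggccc
h.1267: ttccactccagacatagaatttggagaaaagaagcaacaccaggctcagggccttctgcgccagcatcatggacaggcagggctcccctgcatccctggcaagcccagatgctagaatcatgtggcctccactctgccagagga
m.808: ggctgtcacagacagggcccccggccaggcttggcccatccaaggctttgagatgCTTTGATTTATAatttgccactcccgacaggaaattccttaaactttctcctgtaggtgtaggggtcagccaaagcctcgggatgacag

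As a group, CpG-poor upstream tiles sat close to random sequences. The human set had a median of 1.03 when read in hESCs and 1.05 when read in mESCs. The 1935 other measured human upstream tiles had 1.55 and 1.32. The mouse set had 1.04 and 1.06, against 1.478 and 1.31 for 1792 others. The medians of single passages differed by an SD of 0.0140 to 0.0187 around the values of the CpG-poor sets, so the distance to the other tiles was larger than the passage spread. GC content differed along with CpG number and was 45.8% at the median in the human set and 66.0% in the other human tiles, and 49.3% against 63.2% in mouse; CpG number and GC content were not separated here.

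The level was higher at higher CpG numbers, with small reversals between neighbouring classes and no break at the limit of 3. For human tiles with 0 CpG the hESC median was 0.978 and the mESC median 1.05, for those with 2 CpG they were 1.08 and 1.06, for those with 3 CpG 1.05 and 1.08, and those just outside the limit, with 4 CpG, 1.16 and 1.12. In mouse, tiles with 3 CpG had medians of 1.13 in both cell types and tiles with 4 CpG 1.11 and 1.12. Human tiles with 15 or more CpG reached 2.11 in hESCs and 1.75 in mESCs. Across all 3021 measured human upstream tiles the rank correlation of activity with CpG number was 0.51 in hESCs, and inside the CpG-poor set it was 0.12. These correlations run over tiles that share libraries, and many of which overlap, so they are given without a p.

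**Figure D1:**
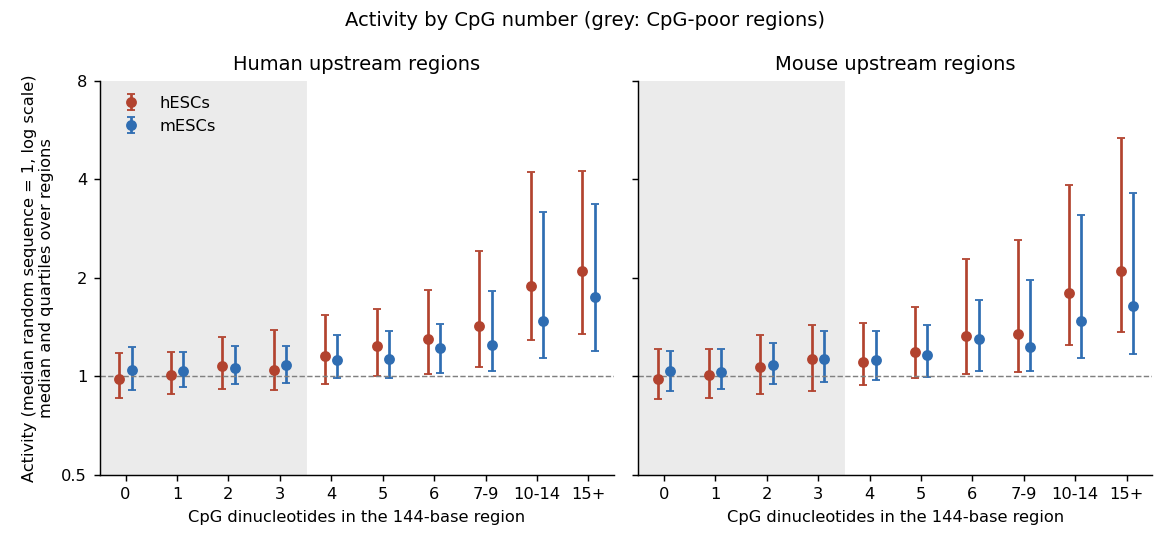
MPRA activity (log axis, median random sequence = 1) of measured upstream tiles by CpG number, human left and mouse right, in hESCs (red) and mESCs (blue); points are medians over tiles and bars the quartiles. CpG-poor tiles (grey) have medians from 0.978 to 1.13, and the classes with 15 or more CpG reach 2.11 in human and 2.10 in mouse tiles in hESCs.

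The CpG-poor tiles held more TpG and CpA. Their median number of TpG plus CpA dinucleotides was 21 in human and 22 in mouse, against 16 and 17 in the other upstream tiles and 18 in random sequences. They lay elsewhere in the genome too. Of the human set 51.0% fell in introns, 26.2% between genes and 22.8% in exons, while 59.8% of the other human upstream tiles touched an exon. Of the mouse set 50.1% lay between genes and 12.5% touched an exon, against 45.98% of the others. Among the tiles with a biotype in the study's list of element pairs, transcribed enhancers (eRNAs) made up 41.0% of the human CpG-poor set and 9.10% of the others, and mRNA promoters 12.7% and 38.6%. For mouse, eRNAs made up 36.2% and 12.8%.

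In most cases the TSS was CpG-poor too. The TSS-overlapping tile also had 3 or fewer CpG for 786 human CpG-poor tiles (72.1%) and 771 mouse ones (64.5%), against 6.21% and 6.99% of the other upstream tiles. Many TSSs lie close together, and 546 of the 2286 members overlapped another member on the genome, so members are not independent of each other.

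A sequence was called active when its mean activity over the 3 passages lay far enough above random sequences (distance in scaled median absolute deviations, one-sided, Benjamini-Hochberg adjusted over the 11861 TSS sequences measured). In hESCs 127 human CpG-poor tiles (11.7%) were active, where 40.7% of all TSS sequences and 33.2% of all human upstream tiles were. In mESCs 77 (7.09%) were, against 31.1% of all TSS sequences and 23.9% of human upstream tiles, and 59 tiles were active in both cell types. Of the mouse set 146 (12.3%) were active in hESCs against 30.3% of all mouse upstream tiles, and 98 (8.25%) in mESCs against 22.2%, with 78 active in both. The CpG-poor sets were therefore below the background in both cell types.

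The lowest activity called active was 1.70 for hESCs and 1.74 for mESCs. Random sequences lay above it in 142 of 1604 cases (8.85%) in hESCs and 118 (7.36%) in mESCs. They have 3 barcodes each where TSS sequences have 13, and with the first 3 barcodes alone the share above the limit was 12.7% for human and 14.6% for mouse CpG-poor tiles in hESCs, and 9.67% and 11.1% in mESCs. When the call was made by rank among the random sequences, 15 human and 16 mouse tiles stayed active in hESCs, and 16 and 23 in mESCs. An activity of at least 5 was reached by 12 human and 15 mouse tiles in hESCs and by 4 and 9 in mESCs.

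Within the set, active tiles were more frequent where CpG number and GC content were higher. In hESCs 7.91% of human tiles with 0 CpG were active and 17.0% of those with 3, and in mouse 8.71% and 18.7%. By GC content the active share in hESCs went from 5.98% of 251 human tiles under 40% GC to 30.5% of 82 tiles with 60% or more, and from 6.63% to 23.5% in mouse. By biotype, the human tiles of listed mRNAs were active in hESCs in 16 of 74 cases (21.6%), those of lncRNAs in 33 of 204 (16.2%) and those of eRNAs in 23 of 238 (9.66%). In mouse the shares in mESCs were 14 of 107 mRNA tiles (13.1%), 4 of 70 lncRNA tiles (5.71%) and 15 of 234 eRNA tiles (6.41%), so the order of lncRNA and eRNA tiles was not that of the human set.

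Tiles holding certain motifs were active more often. The GC box, the SP1-type site that holds a CpG itself, was in 2.95% of the human CpG-poor tiles and 31.5% of all human upstream tiles. Of the 32 CpG-poor holders, 13 (40.6%) were active in hESCs and 10 (31.2%) in mESCs. The shares were lower for the 53 mouse holders, at 26.4% and 17.0%. The CCAAT box (CCAATCA or CCAATCG), the site of NF-Y, had 8 of 25 human holders active in hESCs and 3 of 25 in mESCs, and 34.6% of 26 mouse holders in hESCs with 30.8% in mESCs. The G-rich motif GGGAGGGG gave 25.9% of 58 human and 27.3% of 66 mouse holders in hESCs, and 20.7% and 16.7% in mESCs. The CACCC box (CCACACCC or CCCCACCC), read by KLF factors, gave 23.7% of 59 human holders in hESCs and 15.3% in mESCs, and 16.7% and 13.9% of 72 mouse holders. GC content was not held equal between holders and other tiles.

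The TATA box TATAAA was in 7.83% of human and 5.89% of mouse CpG-poor tiles, against 3.57% and 3.71% of all upstream tiles. Of the human holders 12.9% were active in hESCs and 5.88% in mESCs, and of the mouse holders 10.0% and 4.29%, against 11.7%, 7.09%, 12.3% and 8.25% of the whole sets. The GATA motif AGATAA (8.47% of human tiles against 4.29% of all) and the A tract (7.18% against 4.002%) were also more common in the CpG-poor set, with active shares in hESCs of 11.96% and 11.5%. In mouse the GATA motif was in 6.82% against 3.86% and the A tract in 6.23% against 3.93%, with active shares in hESCs of 8.64% and 14.9%.

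**Figure D2:**
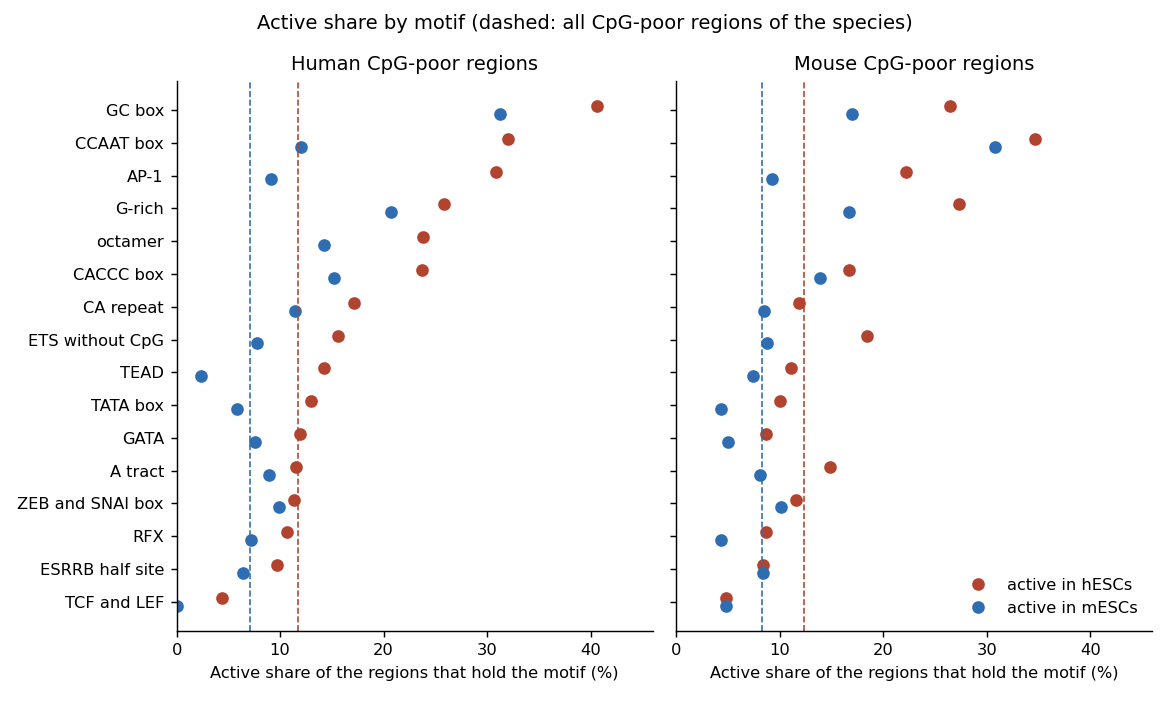
Share of measured CpG-poor tiles active in hESCs (red) and mESCs (blue) among those that hold a motif, for motifs held by at least 20 tiles of a species; dashed lines give the share of all CpG-poor tiles. Human AP-1 holders have 30.9% active in hESCs and 9.09% in mESCs, while GC box and CCAAT holders stand high in at least 1 cell type of each species.

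The AP-1 motif was in 55 human CpG-poor tiles (5.06%, against 2.62% of all human upstream tiles) and in 54 mouse ones (4.55% against 2.47%). Of the human holders 17 (30.9%) were active in hESCs and 5 (9.09%) in mESCs, and of the mouse holders 12 (22.2%) and 5 (9.26%). The 7 human tiles with 2 or more AP-1 matches had medians of 2.24 (hESCs) and 1.46 (mESCs), and 6 of them were active in hESCs and 2 in mESCs. The 48 human tiles with 1 match had medians of 1.13 and 1.11. The 6 mouse tiles with 2 or more matches did not show this, with medians of 1.05 and 1.09 and 1 active tile in hESCs. Some of these tiles, such as h.1653 and h.1555, overlap and share the same sites.

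Activity was then compared between the cell types for each tile, which addresses how far the output of a fixed sequence differs between the cells (a trans effect). Medium, transfection reagent and plasmid amount differed along with the cells. edgeR's quasi-likelihood test was run over 13468 sequences, and a difference was called at an adjusted p under 0.05 and at least 1.5-fold. Of the human CpG-poor tiles 26 (2.39%) were higher in mESCs, against 2.45% of all sequences and 1.76% of the other human upstream tiles. Lower in mESCs were 51 (4.70%), against 11.8% of all sequences and 13.7% of the others. Of the mouse CpG-poor tiles 34 (2.86%) were higher, against 2.46% of the other mouse upstream tiles, and 58 (4.88%) lower, against 12.1%. With this scaling CpG-poor tiles, counted over the whole sets, had fewer falls than the background and about as many rises. Only 145 human and 166 mouse CpG-poor tiles were active in at least 1 cell type. Of these active tiles 31.0% in human and 31.3% in mouse were lower, against 27.6% and 25.2% of the active other upstream tiles. Higher were 8.28% and 7.23%, against 2.99% and 3.94%. Among the rises, 12 of 26 human and 12 of 34 mouse tiles were active in mESCs.

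The direction of these calls depends on the scaling. With edgeR's TMM factors in place of the random sequences, which moved the median log2 difference of all sequences from -0.09 to 0.02, the calls were 49 higher and 43 lower in human and 62 and 39 in mouse. As shares, 4.51% of human and 5.22% of mouse CpG-poor tiles were then higher, against 4.14% of all sequences and 2.84% and 4.07% of the other human and mouse upstream tiles. Lower were 3.96% and 3.28%, against 8.57% of all sequences and 9.41% and 8.65% of the others, so the falls stayed below the background with both scalings. With random-sequence scaling the median log2 difference was 0.02 in human and 0.01 in mouse CpG-poor tiles, against -0.09 for all sequences.

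Of the human rises 14 of 26 and of the falls 41 of 51 were called in all 6 refits that left out 1 passage. For mouse these were 13 of 34 and 38 of 58. An alternative chosen after seeing the data left out the barcode with the most RNA reads of each TSS sequence, while random sequences kept theirs. With it 20 of the 26 human rises and 46 of the 51 falls were called, and 26 of 34 and 51 of 58 in mouse. Activity of CpG-poor tiles correlated between hESC passages at 0.81 to 0.92 in human and 0.82 to 0.93 in mouse, and between mESC passages at 0.61 to 0.72 and 0.62 to 0.80 (Pearson's r of log2 activity, over tiles, without a p).

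**Figure D3:**
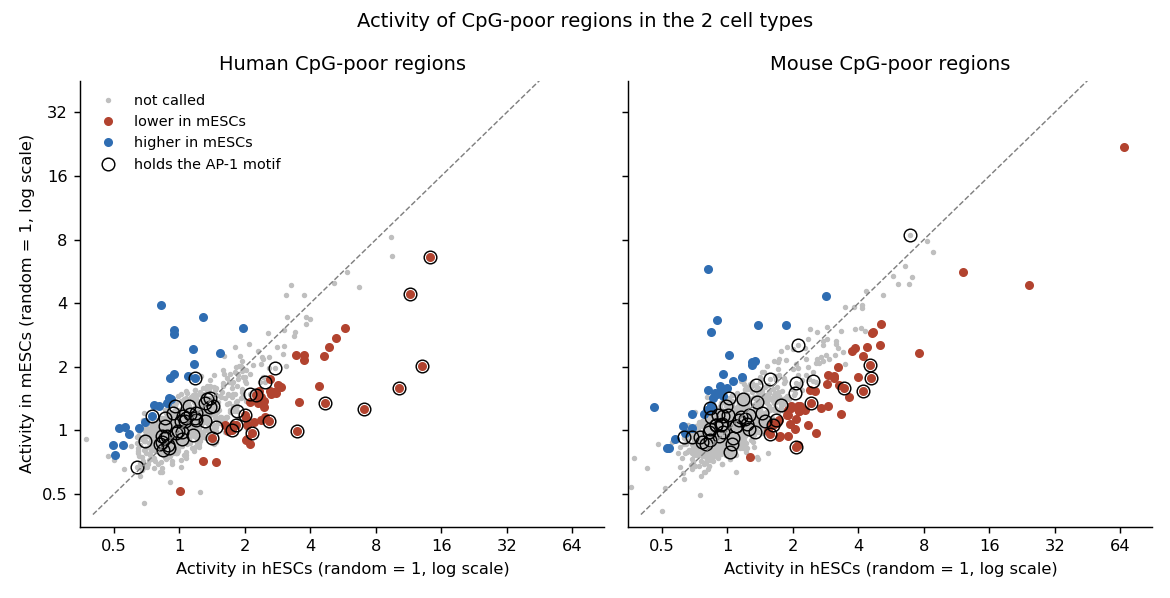
Each measured CpG-poor tile by its activity in hESCs (horizontal) and in mESCs (vertical), mean of 3 passages, both axes logarithmic with the median random sequence at 1; coloured points were called between cell types and black rings hold the AP-1 motif. Ringed human tiles below the diagonal include h.1653 at 13.02 and 2.02 and h.2142 at 10.3 and 1.58.

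AP-1 holders were more frequent among the tiles that fell in mESCs than in the whole sets. Of the 51 human tiles lower in mESCs 14 (27.5%) held TGACTCA, where 5.06% of all human CpG-poor tiles did, and 2 of the 26 higher tiles held it. In mouse it was in 8 of the 58 lower tiles (13.8%) and in none of the 34 higher ones. Falls came mostly from tiles active in hESCs, in 45 of 51 human and 52 of 58 mouse cases. Of the tiles active in hESCs, 17 of 127 in human and 12 of 146 in mouse held the motif. Activity in hESCs was not held equal in this comparison. Read the other way, 25.5% of human and 14.8% of mouse AP-1 holders were called lower, against 4.70% and 4.88% of the whole sets. Outside the CpG-poor sets, 6 of 32 human and 4 of 25 mouse upstream AP-1 holders were lower. Of all these other upstream tiles 13.7% in human and 12.1% in mouse were. The mouse share was thus not higher in CpG-poor holders than in holders outside the set. Most CpG-poor AP-1 holders were not called. Their median log2 difference was -0.06 in human and 0.0042 in mouse, against 0.02 and 0.01 in tiles without the motif. CCAAT holders were lower in 4 of 25 human cases and 0 of 26 mouse cases. Tiles with the ESRRB site leaned the other way, with a median log2 difference of 0.15 in 31 human and 0.20 in 36 mouse holders against 0.02 and 0.01 in tiles without it. 3 human and 3 mouse holders were called higher, and 0 and 1 lower. The active share of the ESRRB site holders in mESCs was 6.45% in human and 8.33% in mouse, against 7.09% and 8.25% of the whole sets. Their mESC medians were 1.04 and 1.14, against 1.05 and 1.06 in tiles without the site. The lean was not particular to this site. Holders of the TCF and LEF motif CTTTGAT had median log2 differences of 0.12 in 23 human and 0.09 in 21 mouse tiles. Of these 0 human and 2 mouse tiles were called higher, and 0 lower in either species. The ZEB and SNAI box was in 5 of 26 human and 10 of 34 mouse tiles that were higher, against 12.2% and 11.7% of all CpG-poor tiles. The octamer was in 21 human and 16 mouse tiles. Among these holders 1 human and 1 mouse tile were called higher, and 1 and 2 lower. Their median log2 difference was 0.0018 in human and -0.04 in mouse. Of the human holders 5 were active in hESCs and 3 in mESCs.

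h.1653, at chr18:3603561-3603704 on the plus strand of hg19 in an exon of DLGAP1-AS2, read 13.03, 11.99 and 14.03 in the hESC passages and 1.56, 1.94 and 2.57 in the mESC passages. It was 6.43-fold higher in hESCs (log2 difference -2.69 ± 0.16 SE, adjusted p = 2.91e-12). The overlapping tile h.1555, which shares 90 bases and both AP-1 sites with it, read 6.55, 6.48 and 8.18 in hESCs and 1.06, 1.33 and 1.42 in mESCs, a 5.58-fold difference. A TSS-overlapping tile (h.1543) that shares 111 bases and also holds 2 AP-1 matches was at 11.9 ± 1.27 and 1.89 ± 0.36 (SD, n = 3). The tile h.1653 has no passage overlap between the cell types, and its neighbours that hold both sites moved with it.

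h.2142, at chr18:59274190-59274333 on the minus strand in an exon of the transcript ENSG00000267279, was at 8.74, 10.9 and 11.2 in hESCs and at 1.479, 1.69 and 1.58 in mESCs, 6.48-fold apart (adjusted p = 2.66e-12). Its overlapping neighbours h.2177, which keep the 1 AP-1 site, were at 2.16 ± 0.23 in hESCs for the upstream tile and 3.82 ± 0.52 for the TSS-overlapping tile. h.1495 read 3.37, 3.33 and 3.76 in hESCs and 1.04, 0.861 and 1.08 in mESCs, and a tile on the opposite strand sharing 135 bases (h.1305, TSS-overlapping) read 5.34 ± 0.33 and 1.13 ± 0.14. h.1991, in an intron of PPP1R3B-DT, with an AP-1, an ETS and a TEAD match, was at 4.69 ± 0.27 and 1.35 ± 0.18, 3.47-fold apart. All 4 of the human tiles with the largest falls, apart from overlapping neighbours, therefore held an AP-1 match.

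h.3248, the highest human tile, read 12.3, 15.1 and 15.2 in hESCs and 6.28, 5.21 and 8.46 in mESCs, 2.14-fold apart (adjusted p = 4.13e-06). Its 2 AP-1 matches begin at bases 95 and 105, and several designed tiles cover this place. The tiles that share 83 to 134 bases with it and kept both matches were at 9.54 ± 1.00 (h.3135), 19.01 ± 1.32 (h.3116), 23.1 ± 2.04 (h.3110, TSS-overlapping) and 23.6 ± 3.12 (h.3150, TSS-overlapping) in hESCs. Those that share bases with it but not the matches read 0.822 ± 0.29 (h.3150), 0.849 ± 0.42 (h.3087, TSS-overlapping), 1.22 ± 0.43 (h.3110) and 1.94 ± 0.15 (h.3094). The 24-base words of h.3248 occur 2 times in the human genome. h.2886, with 1 AP-1 match, read 10.7, 11.2 and 12.7 in hESCs and 4.57, 3.99 and 4.76 in mESCs (2.60-fold, adjusted p = 2.04e-07).

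The human tiles named for a high level that hold no AP-1 match were not called between the cell types. h.1335 was at 7.82, 10.3 and 10.3 in hESCs and 6.12, 6.20 and 7.65 in mESCs, a 1.42-fold difference that missed the 1.5-fold limit (adjusted p = 0.018). h.3450 inside DIAPH1, which encodes a formin that builds actin filaments, was at 8.75, 8.83 and 10.6 in hESCs and 7.66, 7.04 and 9.98 in mESCs (adjusted p = 0.57), and its passages overlapped. The tile h.3550 on the opposite strand, sharing 138 bases with it, read 11.7 ± 1.22 and 10.4 ± 1.65, so this stretch was active in both orientations. h.368 by BRD3OS read 5.89 ± 0.52 and 5.62 ± 1.73, and h.3644, with a GC box, 5.14 ± 0.65 and 4.99 ± 0.74. h.331 by the pseudogene BICDL3P read 3.26 ± 0.53 and 4.87 ± 1.05, a 1.49-fold difference just under the limit (adjusted p = 0.0088) that was called with TMM factors.

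The human tiles with the largest rises had 0 CpG. h.1356 read 1.02, 0.748 and 0.710 in hESCs and 3.76, 4.05 and 3.92 in mESCs, a 4.73-fold rise (log2 difference 2.24 ± 0.15 SE, adjusted p = 2.96e-11). h.1476, antisense in an intron of GPRIN3, went from 0.945 ± 0.11 to 2.98 ± 0.41, h.3526 in LINC01482 from 0.947 ± 0.12 to 2.87 ± 0.49, and h.3457 in VTI1A from 1.28 ± 0.15 to 3.45 ± 0.08. The passages of the cell types did not overlap in any of these 4 tiles. They are human sequences that were near the random level in hESCs and active in mouse cells. The h.3457 stretch was also read from the other strand, by the TSS-overlapping tile h.3557 with 111 shared bases, at 1.84 ± 0.11 in hESCs and 3.21 ± 0.32 in mESCs.

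**Figure D4:**
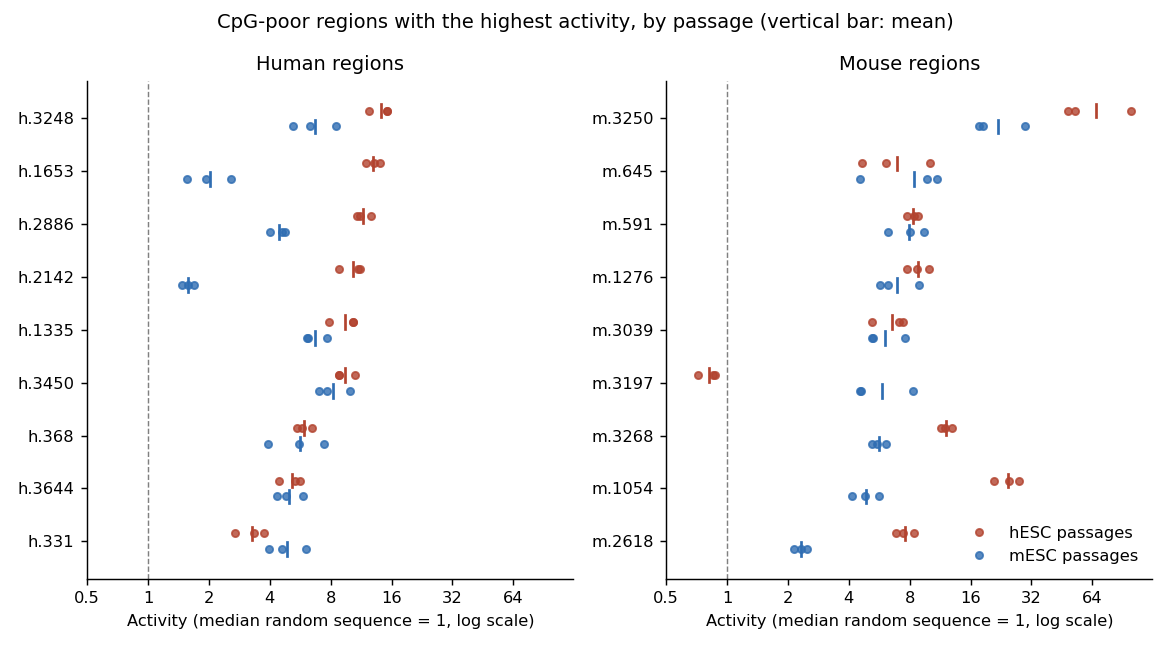
Activity (log axis, median random sequence = 1) of the CpG-poor tiles with the highest means in either cell type, human left and mouse right; dots are the 3 passages of hESCs (red) and mESCs (blue) and vertical bars their means. h.1653 and h.2142 fall to 2.02 and 1.58 in mESCs, m.3197 rises from 0.812 in hESCs to 5.82, and the first hESC passage of m.3250 reaches 99.2.

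Among mouse tiles m.3250 stood apart. It read 99.2, 48.5 and 52.4 in hESCs and 29.8, 17.5 and 18.5 in mESCs, with rank 1 of the 11861 TSS sequences in hESCs and rank 86 in mESCs. Passage 1 was the highest in both cell types, and the other passages lay within a narrower range. It fell 3.04-fold in mESCs (adjusted p = 2.78e-05), and without its strongest barcode it was at 64.6 and 21.0. The tile m.3350 on the opposite strand shares 123 bases and was at 0.906 ± 0.07 and 1.29 ± 0.19, but it also lacks the remaining bases of m.3250, so strand and missing bases cannot be told apart. Other designed tiles share 16-base words with it. m.1689, with 37 such words, was at 65.4 in hESCs and 53.5 in mESCs and m.1031, with 10, at 12.7 and 15.2, while m.825 with 37 words was at 0.856 and 1.36. Near the random level too were m.819 with 19 words (1.11 and 1.00), m.2235 with 14 (0.814 and 1.06) and h.3563 with 4 (0.822 and 0.995). m.709, with 2 words, was at 7.98 and 8.35.

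m.1054 had 0 CpG and read 20.9, 24.6 and 27.9 in hESCs and 4.80, 4.16 and 5.63 in mESCs, a 5.03-fold difference (log2 difference -2.33 ± 0.17 SE, adjusted p = 1.12e-10). The opposite-strand TSS-overlapping tile m.1231, sharing 128 bases, read 36.1 ± 3.22 and 7.47 ± 1.24. This stretch was high on both strands, and lower in mESCs on both. m.3268 was at 12.1 ± 0.78 and 5.61 ± 0.44 (2.16-fold lower in mESCs, adjusted p = 3.12e-06), m.2618 in Asxl2 at 7.56 ± 0.75 and 2.32 ± 0.17, and m.1990 at 3.32 ± 0.13 and 1.20 ± 0.27. None of these mouse tiles held an AP-1 match.

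m.3197 was the mouse tile with the largest rise. It read 0.850, 0.869 and 0.718 in hESCs and 4.59, 4.52 and 8.35 in mESCs, a 7.17-fold rise (log2 difference 2.84 ± 0.18 SE, adjusted p = 7.30e-12), and lies before Spic, which encodes an ETS factor of the SPI family known from macrophages. m.3231 in Gm12216 went from 0.892 ± 0.02 to 3.32 ± 0.36 and m.3382 in Prkacb, a catalytic subunit of protein kinase A, from 0.842 ± 0.18 to 2.94 ± 0.51. m.208 before 2610029I01Rik was below random sequences in hESCs, at 0.459 ± 0.09, and near them in mESCs, at 1.30 ± 0.13.

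The mouse tiles that were high in both cell types included m.591, in the 5′ part of Wbp11, a splicing factor gene, with a CCAAT and a TEAD match. It read 7.78, 8.39 and 8.76 in hESCs and 8.05, 6.23 and 9.43 in mESCs. m.1276 near Egfl7, a gene of blood vessel growth, read 8.83 ± 1.11 and 6.95 ± 1.73, and the opposite-strand tile m.1115 with 93 shared bases 3.61 ± 0.54 and 1.44 ± 0.28. m.3039, also with a CCAAT match, read 6.57 ± 1.19 and 6.01 ± 1.39. m.645 before Abi3 averaged 8.40 ± 3.41 in mESCs, but it had 7 barcodes with 472 DNA reads, and 1 barcode gave 78.8% of its mESC RNA. Without that barcode it was at 2.46 in mESCs and 2.80 in hESCs.

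Overlapping tiles allowed a wider look at strand. For pairs of measured tiles that share at least 100 bases, at least 1 of them CpG-poor, the rank correlation of activity in hESCs was 0.57 for 96 human pairs on the same strand and 0.57 for 127 pairs on opposite strands. In mouse it was 0.49 for 95 and 0.58 for 117 pairs. In mESCs the values were 0.42 and 0.29 for the human pairs and 0.35 and 0.60 for the mouse pairs. Beside a CpG-poor tile active in hESCs, the opposite-strand partner was active in 10 of 21 human and 14 of 20 mouse cases. Beside an inactive one it was active in 15 of 130 (11.5%) and 16 of 112 (14.3%). In mESCs the partner was active in 7 of 10 human and 11 of 14 mouse cases beside an active tile, and in 11 of 141 and 13 of 118 beside an inactive one. The partners share most of their bases, so the values describe how far activity carries over to the other strand and are given without a p.

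The upstream tile was next set against the TSS-overlapping tile of the same TSS, which asks where near a TSS the activity lies. Both tiles were measured for 1047 human CpG-poor tiles, in hESCs, and 1125 mouse ones, in mESCs. Differences were called by edgeR at an adjusted p under 0.05 and at least 2-fold. The tiles of a TSS carry different barcodes, whose noise is not part of the spread between passages that p-values measure. Of the human tiles 45 (4.30%) were more active than their TSS-overlapping tile, where 8.59% of all 2608 human TSSs had this, and 188 (18.0%) were less active, where 27.1% did. In mouse 40 (3.56%) were more active against 7.73% of 2625, and 183 (16.3%) less active against 24.9%. TMM factors gave 85 more (8.12%, against 13.5% of all human TSSs) and 126 less (12.03% against 19.2%) in human, and 125 (11.1% against 15.5%) and 111 (9.87% against 17.7%) in mouse.

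How often the upstream tile was the weaker one went with the CpG number of the TSS-overlapping tile. Where that tile had 0 to 3 CpG, 14.01% of 778 human and 10.9% of 760 mouse upstream tiles were less active. With 4 to 7 CpG it was 23.8% of 210 and 18.8% of 287, and with 8 or more CpG 49.2% of 59 and 59.0% of 78. In this last class the TSS-overlapping tile had a median activity of 1.91 in human and 3.23 in mouse, while the upstream tiles stayed at 1.06 and 1.07. The share of more active upstream tiles was 1.69% of human and 1.28% of mouse TSSs there, and 4.24% and 4.21% where both tiles were CpG-poor.

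**Figure D5:**
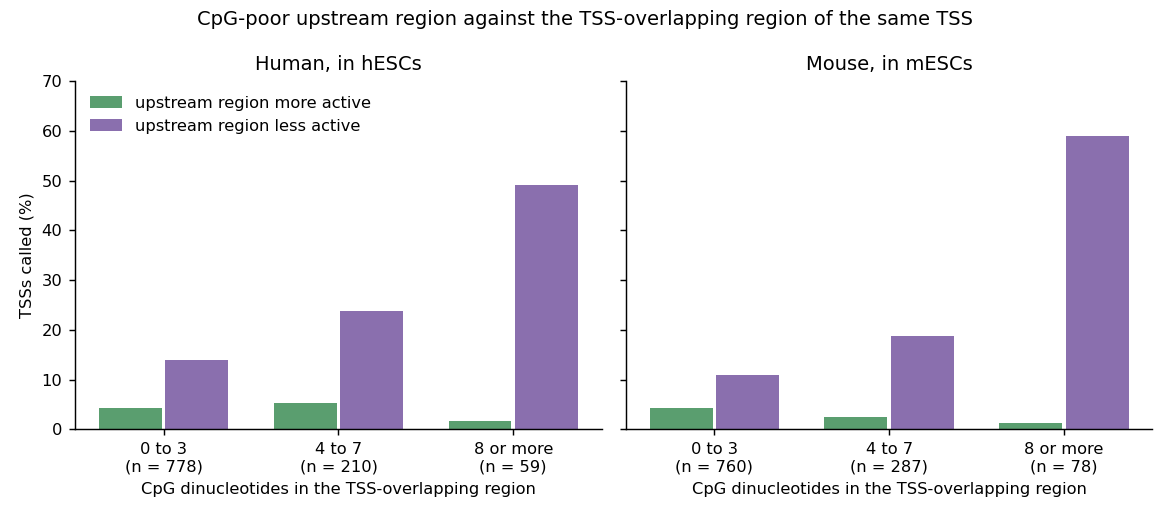
Percent of TSSs whose CpG-poor upstream tile was more active (green) or less active (purple) than the TSS-overlapping tile, by the CpG number of the TSS-overlapping tile, human in hESCs (left) and mouse in mESCs (right), with the number of TSSs tested under each class. The purple bars rise from 14.01% to 49.2% in human and from 10.9% to 59.0% in mouse.

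The widest gaps in the downward direction were at h.1267 and h.1457, eRNA TSSs on opposite strands of human chromosome 9 whose TSS-overlapping tiles overlap. The h.1267 upstream tile read 0.885, 0.913 and 0.702 in hESCs, and its TSS-overlapping tile 29.1 ± 0.39 (34.9-fold, log2 difference -5.13 ± 0.16 SE, adjusted p = 1.24e-10). The h.1457 upstream tile was at 1.01 ± 0.07 and its TSS-overlapping tile at 25.8 ± 0.71. h.3150 in MIR4435-2HG was at 0.822 ± 0.29 beside the tile at 23.6 ± 3.12 that holds the AP-1 matches (28.8-fold). The TSS-overlapping tiles of h.1267 and h.1457 have 3 CpG each, so the strong tile was CpG-poor as well. In mouse the widest gaps were at mRNA promoters. The upstream tile of Llph (m.808) was at 0.954 ± 0.11 in mESCs beside 29.3 ± 6.53 for a TSS-overlapping tile with 10 CpG, that of Rbm45 (m.486), an RNA-binding protein gene, at 0.870 ± 0.35 beside 20.2 ± 4.80 with 12 CpG, and that of Pdcd2l (m.421) at 0.900 ± 0.11 beside 17.7 ± 3.97 with 15 CpG.

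In the upward direction h.3248 was 20.5-fold above its TSS-overlapping tile, which read 0.694 ± 0.16 (adjusted p = 5.39e-10), h.2886 was 10.1-fold above one at 1.15 ± 0.08, and h.1653 7.88-fold above one at 1.65 ± 0.10. In these 3 tiles the AP-1 matches lay in the upstream tile and the TSS-overlapping tile had none. In mouse m.3250 was 14.1-fold above a tile at 1.55 ± 0.25 in mESCs (adjusted p = 2.28e-08), m.645 7.79-fold above one at 1.08 ± 0.19, still called without its strongest barcode, and m.1276 6.31-fold above one at 1.10 ± 0.16. The named calls held in every refit that left out 1 passage.

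Human and mouse upstream tiles of listed pairs were compared within each cell type, which addresses differences in sequence (a cis effect). The tiles of a pair carry different barcodes, and p-values leave out the noise that this adds. Of 1680 pairs tested, 789 had a CpG-poor tile on at least 1 side. In hESCs the mouse tile was at least 2-fold more active in 47 of these (5.96%), where 8.51% of all pairs were, and the human tile in 101 (12.8%), against 13.6%. In mESCs it was 32 (4.06%) against 7.20% and 65 (8.24%) against 10.2%. The direction went with the side that was CpG-poor. Where the mouse tile alone was CpG-poor (240 pairs), the human tile was more active in 25.0% in hESCs and 15.8% in mESCs and the mouse tile in 2.92% and 4.17%. Where the human tile alone was (126 pairs), the mouse tile was more active in 12.7% and 7.94% and the human tile in 6.35% and 4.76%. In the 423 pairs with both tiles CpG-poor, the mouse tile led in 5.67% and the human tile in 7.80% in hESCs.

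The human tile of TUSC2, a tumour suppressor candidate (h.566, 10 CpG, with a CCAAT and a GC box), read 12.4 ± 1.59 in hESCs and 20.5 ± 3.45 in mESCs, and its CpG-poor mouse partner m.452 1.21 ± 0.07 and 0.825 ± 0.16. The log2 difference of mouse over human was -3.35 ± 0.13 in hESCs (adjusted p = 9.18e-10) and -4.63 ± 0.25 in mESCs (adjusted p = 1.45e-08). The h.1948 tile at the lncRNA genes MIAT and MIATNB, with 9 CpG, read 13.1 ± 1.63 and 18.0 ± 3.46 against 1.20 ± 0.13 and 1.20 ± 0.06 for the mouse tile m.1760 with 0 CpG. h.373 at UXT-AS1, with 15 CpG and overlapping NRF1 matches, read 9.23 ± 1.43 and 11.4 ± 2.25 against 0.795 ± 0.10 and 1.17 ± 0.05 for m.244 with 1 CpG. In these 3 pairs the passages of the species did not overlap in either cell type.

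Mouse tiles led in fewer pairs. In the eRNA pair in PLXNC1, which encodes a semaphorin receptor, the human tile h.1349 (1 CpG) read 1.56 ± 0.08 in hESCs and 1.09 ± 0.18 in mESCs and the mouse tile m.1031 (5 CpG) 12.7 ± 5.80 and 15.2 ± 3.53 (log2 difference 3.80 ± 0.22 in mESCs, adjusted p = 2.52e-08). The words of m.1031 occur a median of 250 times in the mouse genome. In the pair h.2166 and m.1978, with 1 and 0 CpG, the human tile was at 0.730 ± 0.15 and 0.971 ± 0.14 and the mouse tile at 4.68 ± 0.20 and 2.93 ± 0.53. The ABI3 pair, h.760 and m.645, differed by a log2 value of 2.92 ± 0.38 in mESCs (adjusted p = 2.37e-05), but without the strongest barcodes it fell to 1.35, with 0.22 in hESCs, and it was not called in both cell types. Without hESC passage 1 its call in hESCs was lost as well.

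RNA-seq of the transfected cells gave the level of the genes assigned to the listed TSSs, in RPKM (reads scaled to gene length and library size) computed from the gene counts. In bulk RNA, fewer cells that express a gene and less RNA per cell cannot be told apart. Genes of the 62 human active tiles with a value had a median of 0.266 RPKM in hESCs and those of 281 other CpG-poor tiles 0.0910, and the rank correlation of activity with RPKM was 0.17 over 343 tiles. For mouse in mESCs the medians were 0.419 for 11 active and 0.788 for 85 other tiles, with a rank correlation of 0.03 over 96. The tiles share genes and libraries, and no test was made. Low tile activity did not mean a silent gene. Pdcd2l was at 30.6 ± 0.40 RPKM, Rbm45 at 24.1 ± 1.08, Llph at 17.6 ± 0.86 and Tusc2 at 11.9 ± 1.36 in mESCs with upstream tiles near the random level, and DLGAP1-AS2, with its strong tiles, was at 3.01 ± 0.29 in hESCs (SD, n = 3).

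Marker genes of the cells were read from the same libraries. Of the naive state markers, ESRRB, which reads the site named above, was at 0.408 RPKM in hESCs and its mouse counterpart at 160 in mESCs. KLF4 was at 0.701 and 118, TBX3 at 0.0157 and 46.9 and ZFP42 at 54.0 and 70.8, while TFCP2L1, at 1.30 in hESCs, had no mouse value. Of the primed state markers SFRP2 was at 294 and 0.458, DUSP6 at 60.8 and 2.39, ZIC2 at 27.2 and 7.43 and FGF2 at 11.5 and 0, but OTX2 at 8.70 and 15.5, levels set across tables that were counted separately for each species. Of the pluripotency markers POU5F1 was at 28.8 and 396, NANOG at 20.7 and 373, SOX2 at 71.1 and 196 and SALL4 at 39.9 and 45.5. LIN28A went the other way, at 589 and 24.2. Of the genes listed as feeder or fibroblast markers, THY1 was at 119 and COL1A1 at 19.9 in hESCs against 0.512 and 0.296 in mESCs. COL1A2 was at 7.64 and 0 and VIM, the other way, at 28.6 and 41.0. Bulk levels do not tell which cells the RNA came from, and the part of these genes in the results was not tested. PAX6, of the neural lineage, was at 0.0241 and 0.0212, and SOX1, at 0.0172 in hESCs, had no mouse value. The mesoderm marker TBXT was at 0.0414 and 0.137, and MIXL1, the other way, at 0.753 and 0.156. The endoderm markers SOX17, GATA6 and GATA4 were at 0.00273, 0.0129 and 0.0335 in hESCs and 0.0819, 0.0957 and 2.01 in mESCs.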

How the data were processed

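The authors trimmed the reporter reads, required an exact match to the barcode and the constant bases next to it, and deposited raw read counts per barcode, without molecular identifiers. The barcode index places human sequences on hg19 and mouse ones on mm9. The deposited RNA-seq files hold fragment counts per gene from a kit that keeps no strand, counted with featureCounts 2.0.0. Their headers name hg19 for human and mm9 for mouse annotation, while the study's methods name mm10 for mouse. The members and the motif and marker lists were chosen with earlier results of these data known.

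Reporter libraries held 61362734 to 117103221 reads on indexed barcodes, with a median of 65 to 145 per barcode, and 98438176 in the plasmid DNA. CpG-poor tiles had a median of 6691 DNA reads in human and 7140 in mouse, over 13 barcodes. Barcodes with 10 or more DNA reads were kept, transfections of a passage were summed, and activity was scaled to the median random sequence of the passage. The difference fits used sequences with at least 50 DNA reads and a mean of 10 RNA reads, in edgeR 4.0.16 with log DNA count and random level as offset and Benjamini-Hochberg adjustment over all sequences, TSSs or pairs. DESeq2 1.42.0, other scalings, barcode minimums, call rules and left-out passages were alternatives. The functions were tested on simulated counts. Log2 differences are given ± SE and activities ± SD over 3 passages. Genome annotation was GENCODE v44lift37 for human and vM1 for mouse. The list of element pairs was held in part (2295 pairs), and gave biotype, gene and pairing, no value.

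Tiles were named by rule: per species the 6 highest in the native cell type, the next 3 in the other, the 4 largest called changes in each direction between cell types without passage overlap, the 3 largest called gaps to the TSS-overlapping tile each way, and the 3 largest called pair differences each way, with overlapping neighbours counted once. Tiles that overlap a named tile are given beside it.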

Additional observations from a re-analysis of the deposited data

How the results depend on the processing

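Under DESeq2 size factors and TMM factors rises outnumbered falls in both species, and mouse upstream tiles above their TSS-overlapping tile outnumbered those below, where the order was the opposite with random-sequence scaling. Raising the limit to 5 CpG gave 203 active human and 227 active mouse tiles in hESCs and 121 and 153 in mESCs, with medians of 1.05, 1.07, 1.07 and 1.08 and 88 human falls. A limit of 2 CpG gave 93 and 59 active mouse tiles in hESCs and mESCs and a mouse median of 1.02 in hESCs. Distance on a log2 scale gave 75 human and 95 mouse active tiles in hESCs and 43 and 62 in mESCs, and rank among the random sequences 15, 16, 16 and 23. The median barcode ratio gave 50 and 62 active in mESCs, and medians of 0.985, 0.979, 0.990 and 0.999. Total-read scaling, which is not relative to random sequences, gave medians of 0.396, 0.401, 0.456 and 0.461. Averaging the transfections gave 1.07 and 1.09 in hESCs. Leaving out the strongest barcode of TSS sequences, but not of random ones, gave 0.969, 0.970, 1.00 and 1.00. The first 3 barcodes gave 1.01, 1.01 and 1.04 (both chosen after seeing the data).

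DESeq2 size factors gave 57 human and 72 mouse rises, 38 mouse falls, 92 and 117 upstream tiles above and 124 and 112 below their TSS-overlapping tile. TMM factors gave 49 and 62 rises, 85 and 125 above and 111 mouse tiles below. Without the fold limit there were 53 and 77 rises, 92 and 93 falls, 154 and 113 tiles above, 413 and 325 below, and pair counts of 161, 231, 80 and 139. Leaving out a passage gave a median of 1.02 to 1.05 for mouse tiles in hESCs, 112 to 138 active human tiles in hESCs and 54 to 57 mouse falls without an hESC passage, up to 71 without mESC passage 3.

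The replicate block gave 29 and 54 human and 36 and 63 mouse calls between cell types and changed no count by over 1.5 times. Same-numbered passages of the cell types shared little (correlation of deviations 0.02 in each of 3 pairs, against -0.03 to 0.01 in pairs of unlike number). Values this small cannot tell whether they shared a batch. All passages share the same barcodes and 1 DNA library, and counts carry no molecular identifiers.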
